A study of Rattus norvegicus with 8 samples.

Results

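Chemokines are small secreted proteins that bind G-protein-coupled receptors on leukocytes and draw those cells into tissue. The family is divided by the spacing of its first cysteines into CC, CXC and CX3C members. In an injured ligament, as in other wounds, they are known for bringing in neutrophils first and monocytes afterwards. The 8 chemokine genes described here are Cxcl13, Ccl2, Ccl3, Ccl20, Cxcl1, Cxcl2, Cxcl12 and Cx3cl1. Their probe sets were all those on the array that carry 1 of these names as their only gene symbol. This gave 9 probe sets of the 8799 in the table, for 6 of the 8 genes and of the 4737 gene symbols on the array. No probe set carried the symbol Cxcl1 or Cxcl12, and these 2 genes were not analysed here.

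The study measured total RNA of the rat knee's medial collateral ligament on 8 arrays, with 2 arrays in each of 4 groups, all taken at 3 weeks. Unloaded healing rats had the ligament disrupted on both sides and were then suspended by the tail from 24 h after surgery, which takes weight off the hind legs. Loaded healing rats had the same bilateral injury and bore weight. Unloaded control rats were suspended by the tail and had no sham operation, and loaded control rats had a sham operation and bore weight. The sources used here give no strain, sex or age, and do not say when suspension began in the unloaded controls or whether an array stands for 1 animal or a pool. The p-values below therefore measure only the spread between these arrays, which may be technical.

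Signals are the authors' linear intensities per probe set, already scaled between arrays, with medians of 238.7 to 315.9. The unloaded control arrays stood apart. Their log2 signals correlated with the other arrays at 0.49 to 0.61 across the probe sets tested, against 0.76 to 0.87 among the other 6, and probe sets are not independent replicates. Markers of ligament fibroblasts (10 genes measured, Col1a1 the brightest) summed to 64567 and 49292 in unloaded healing, 126774 and 109344 in loaded healing, 3841 and 3459 in unloaded controls and 107134 and 87192 in loaded controls. Tnmd and Scx, which define tendon and ligament cells, have no probe set named for them. As a measure of background, 19 control probe sets for yeast and bacterial genes had medians of 35.2 to 131.7 on the 8 arrays, and the brightest of them read 222.8 to 675.4. The sources used here do not say whether any of these transcripts was added to the samples.

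Promoter sequence is shown for Cxcl13, the chemokine that differed between groups, and for Cxcl2, a chemokine that stayed within the range of the control probe sets. Each line gives the 250 bases before the gene's start, 5′ to 3′ on the gene's strand, from RefSeq assembly GRCr8. Cxcl13 lies at chr14:13917921-13918170 on the minus strand and Cxcl2 at chr14:17467256-17467505 on the minus strand. Capitals mark the motifs searched on both strands, which were TATAAA and the degenerate NF-kB consensus, a binding site of a factor that switches on many chemokine genes.
Cxcl13: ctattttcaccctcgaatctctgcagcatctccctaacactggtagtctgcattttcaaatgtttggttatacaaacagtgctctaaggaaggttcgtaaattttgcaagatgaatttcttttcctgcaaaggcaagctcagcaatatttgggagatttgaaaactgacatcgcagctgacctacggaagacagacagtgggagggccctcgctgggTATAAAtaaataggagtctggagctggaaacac
Cxcl2: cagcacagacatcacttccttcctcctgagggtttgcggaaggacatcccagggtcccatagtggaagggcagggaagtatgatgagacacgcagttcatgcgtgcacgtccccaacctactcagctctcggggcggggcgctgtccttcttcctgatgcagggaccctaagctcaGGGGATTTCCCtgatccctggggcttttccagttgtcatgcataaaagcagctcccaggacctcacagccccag
Cxcl13 holds TATAAA, its first base 33 bases before the start. Of 33469 RefSeq rat promoters of the same length, 12.9% hold TATAAA at any position on either strand. Cxcl2 holds overlapping matches of the NF-kB consensus that begin 74 and 73 bases before the start, a motif in 6.33% of promoters. Ccl20 and Cxcl1 also hold the NF-kB consensus and Cx3cl1 also holds TATAAA, while Cxcl12 holds neither. The table has entries for 6 of the 8 genes, and Ccl2 and Ccl3 are named only. A match is a description of the letters, and no data here bear on binding.

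Cxcl13, which attracts B lymphocytes through the receptor Cxcr5 and is made by follicular stromal cells and by macrophages, was high in loaded healing ligaments. Its probe set rc_AA892854_at read 277.6 and 189.5 in unloaded healing, 2184.9 and 1643.7 in loaded healing, 414.6 and 377.5 in unloaded controls and 95.9 and 232.4 in loaded controls. Both loaded healing arrays lay above all 6 others, at the 94.5 and 93.2 percentile of their arrays. On the other 6 arrays the probe set lay between the 28.4 and 59.1 percentile, and on each of them 2 to 7 of the 19 yeast and bacterial controls were at least as bright. The group averages were 234 ± 62.3 in unloaded healing, 1914 ± 383 in loaded healing, 396 ± 26.2 in unloaded controls and 164 ± 96.5 in loaded controls (SD, n = 2).

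**Figure D1:**
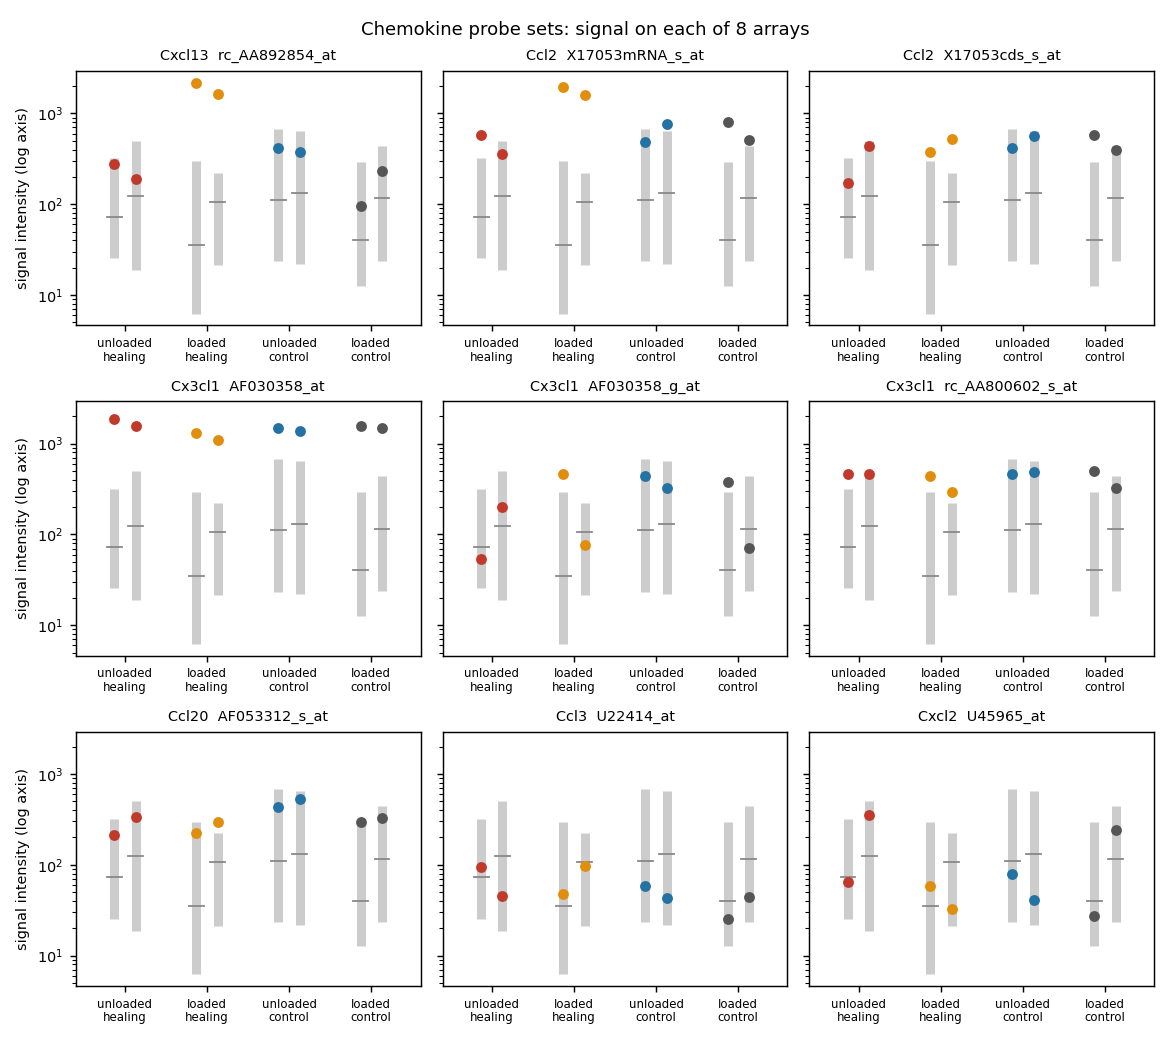
Signal intensity (log axis) of the 9 chemokine probe sets on each of the 8 arrays, array 1 of a group to the left of array 2. Grey bars span the 19 yeast and bacterial control probe sets on that array, with their median as a line. Cxcl13 stands above the bars only on the 2 loaded healing arrays, and Ccl3 and Cxcl2 lie within the bars on all 8.

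Cxcl13 rose 9.78-fold in loaded healing against loaded control (log2 3.29 ± 0.48 SE, adjusted p = 0.00694). Folds and log2 differences are from limma on log2 of signal plus an offset of 45.8, so they understate changes of dim probe sets, and p-values are adjusted by Benjamini-Hochberg over all 5244 probe sets tested. Only 3 probe sets had a larger rise. Of all probe sets 2.02% were called, and of the 7 chemokine probe sets tested 1 was called, Cxcl13. At an unadjusted p of 0.05 it was 2 of the 7, with Ccl2 X17053mRNA_s_at, and 11.7% of all probe sets. The median difference of the 7 was -0.09, beside -0.03 over all probe sets. The call ended without loaded control 1 (adjusted p = 0.0514), without loaded healing 1 (0.109) and without loaded healing 2 (0.0578), where the difference was 2.80 to 3.49. In whole tissue, more cells that make a transcript and more transcript per cell cannot be told apart.

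Under unloading, Cxcl13 in healing ligaments fell to the range of the control ligaments. It was 7.04-fold lower in unloaded than in loaded healing (log2 -2.82 ± 0.48, adjusted p = 0.0199), and 4 of the 5244 probe sets fell further. This comparison called 1.62% of all probe sets and 1 of the 7 chemokine probe sets. At an unadjusted p of 0.05 it was again 2 of the 7, with the same Ccl2 probe set, and 10.9% of all. The median difference was -0.59 over the 7 and 0.06 over all. The loaded healing arrays enter both comparisons, so the rise with injury and the fall with unloading are not independent. The call ended when any 1 of the 4 healing arrays was left out (adjusted p = 0.0545 to 0.208) and with a variance prior that ignores intensity (0.0546), with differences between -3.04 and -2.59.

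The remaining groups lay closer together in Cxcl13. Unloaded healing read 1.60-fold lower than unloaded control (log2 -0.68, 95% interval -1.75 to 0.39, adjusted p = 0.477). Both of its arrays were lower, as were 33.5% of all probe sets. Against loaded control, unloaded healing differed by 0.47 (-0.60 to 1.54, adjusted p = 0.962). Unloaded control read 1.15 higher than loaded control (0.08 to 2.22, adjusted p = 0.244) with no overlap, as 34% of all probe sets were higher without overlap. In order of level, loaded healing came first, then unloaded control, unloaded healing and loaded control, and no test separated the last 3. The step between loaded healing and unloaded control was not tested.

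**Figure D2:**
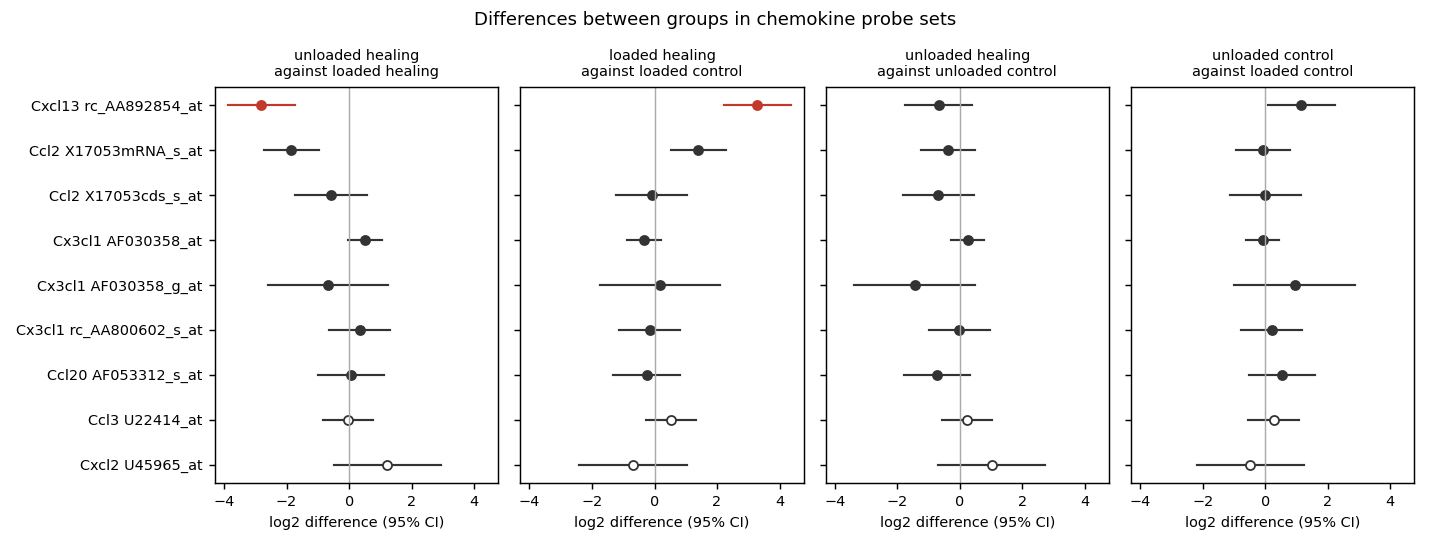
Log2 differences with 95% intervals for the 9 chemokine probe sets in 4 comparisons. Red marks adjusted p under 0.05, which only Cxcl13 reached, and open circles mark Ccl3 and Cxcl2, whose values come from the fit to all 8740 probe sets without a filter on dim ones.

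The difference in Cxcl13 between healing and control ligaments was not the same in unloaded as in loaded rats. The log2 healing effect in unloaded rats minus that in loaded rats was -3.97 ± 0.68 (adjusted p = 0.00461), the 3rd most negative value of the 5244. This test called 4.84% of all probe sets and 1 of the 7 chemokine probe sets, and at an unadjusted p of 0.05 12.9% of all and 2 of the 7. It passed under all 17 other settings tried, with adjusted p of 0.00114 to 0.0428. It uses the unloaded control arrays, on which 9 of the 10 ligament fibroblast genes were lower than in loaded controls (median log2 -3.64), so how far their tissue matches the other ligaments was not tested. The 2 control groups also differ in sham surgery.

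Ccl2, the main attractant of monocytes through Ccr2, was measured by 2 probe sets that did not move alike. The probe set X17053mRNA_s_at read 576.0 and 359.7 in unloaded healing, 1941.8 and 1600.6 in loaded healing, 481.0 and 768.0 in unloaded controls and 802.5 and 509.9 in loaded controls. Its 2 loaded healing arrays were above all others, at the 93.6 and 92.9 percentile, and the other 3 groups overlapped. The difference was 1.40 ± 0.39 in loaded healing against loaded control (95% interval 0.52 to 2.27, adjusted p = 0.138) and -1.85 ± 0.39 in unloaded against loaded healing (-2.72 to -0.98, adjusted p = 0.0519). Neither passed, and the difference of these effects did not either (-1.78 ± 0.55, adjusted p = 0.145). The comparison of the healing groups did pass in 5 of 18 other settings, among them the fit without the unloaded controls (adjusted p = 0.0499).

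The second Ccl2 probe set, X17053cds_s_at, showed no such pattern. It read 172.4 and 440.3 in unloaded healing, 372.6 and 529.0 in loaded healing, 411.1 and 557.4 in unloaded controls and 573.8 and 396.2 in loaded controls, so every pair of groups overlapped. Its difference in loaded healing against loaded control was -0.09 (95% interval -1.24 to 1.05, adjusted p = 0.982), and in unloaded against loaded healing -0.59 (-1.74 to 0.55, adjusted p = 0.757). Both probe sets are named for 1 GenBank record, 1 for its coding sequence and 1 for its mRNA, and the coding one was above all 19 controls on 3 of 8 arrays, against 6 of 8 for the other. Whether the effects of the 2 probe sets differ was not tested.

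Cx3cl1, or fractalkine, is a membrane-anchored chemokine of endothelium and other cells whose receptor is Cx3cr1. Its probe set AF030358_at lay above all 19 control probe sets on all 8 arrays. This probe set read 1870.6 and 1552.4 in unloaded healing, 1297.2 and 1098.4 in loaded healing, 1473.5 and 1391.0 in unloaded controls and 1577.2 and 1472.7 in loaded controls. The loaded healing arrays were the lowest, the reverse of Cxcl13, by a margin that did not pass. The difference was -0.34 ± 0.24 in loaded healing against loaded control (95% interval -0.88 to 0.20, adjusted p = 0.695) and 0.50 ± 0.24 in unloaded against loaded healing (-0.04 to 1.04, adjusted p = 0.525). Groups that do not overlap were common. They were found in 4 of the 7 chemokine probe sets and 39.7% of all probe sets in loaded healing against loaded control, and again in 4 of 7 and 39.7% in unloaded against loaded healing.

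The other Cx3cl1 probe sets varied within groups. AF030358_g_at read 53.3 and 202.1 in unloaded healing, 465.9 and 76.5 in loaded healing, 444.8 and 326.7 in unloaded controls and 375.9 and 71.7 in loaded controls. Arrays of 1 group thus differed more than most groups did, and its interval for loaded healing against loaded control ran from -1.76 to 2.10. The third, rc_AA800602_s_at, read 467.2 and 468.8 in unloaded healing, 441.9 and 296.2 in loaded healing, 461.9 and 487.5 in unloaded controls and 506.0 and 326.0 in loaded controls. Its differences were -0.15 (95% interval -1.12 to 0.82) in loaded healing against loaded control and 0.33 (-0.64 to 1.30) in unloaded against loaded healing. In the 6 comparisons limma called 0 Cx3cl1 probe sets, and 0 had an unadjusted p under 0.05.

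Ccl20, which attracts Ccr6-bearing dendritic cells and lymphocytes, read 212.6 and 337.4 in unloaded healing, 221.4 and 292.8 in loaded healing, 427.1 and 527.2 in unloaded controls and 297.4 and 326.8 in loaded controls on AF053312_s_at. Both unloaded control arrays were highest, but 4 and 1 of the 19 control probe sets were as bright there, and it stood above all 19 on 2 of 8 arrays. Its difference was -0.73 (95% interval -1.79 to 0.34, adjusted p = 0.444) in unloaded healing against unloaded control, 0.54 (-0.52 to 1.61, adjusted p = 0.604) in unloaded control against loaded control and -0.25 (-1.31 to 0.82, adjusted p = 0.93) in loaded healing against loaded control. Ccl20 was therefore not shown to differ between any groups.

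Ccl3 and Cxcl2 lay within the range of the control probe sets. Ccl3, an attractant of monocytes and other leukocytes, read 94.0 and 45.1 in unloaded healing, 47.1 and 97.7 in loaded healing, 58.5 and 43.4 in unloaded controls and 25.5 and 44.2 in loaded controls on U22414_at. Cxcl2, a neutrophil attractant acting through Cxcr2, read 64.5 and 356.4 in unloaded healing, 58.1 and 32.4 in loaded healing, 78.2 and 41.2 in unloaded controls and 27.1 and 242.5 in loaded controls on U45965_at. Neither exceeded the brightest control on any array, and 7 to 16 of the 19 controls were as bright as Ccl3 on every array. For Cxcl2 it was 3 to 16, with 3 on loaded control 2 and 4 on unloaded healing 2. Both belonged to the dimmest 40%, which the tests left out. In the fit without that filter, the adjusted p was 0.73 for Ccl3 and 0.888 for Cxcl2 in loaded healing against loaded control, and 0.991 and 0.686 in unloaded against loaded healing. A difference in these 2 genes was not detectable at these signals.

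In the comparisons that do not involve loaded healing, 0 chemokine probe sets passed with limma. At an unadjusted p of 0.05 there were 0 of 7 in unloaded healing against unloaded control, 1 (Cxcl13) in unloaded control against loaded control and 0 in unloaded healing against loaded control. Of all probe sets, unloaded healing against unloaded control called 7.46% (19.1% unadjusted), unloaded control against loaded control 6.81% (17.8%) and unloaded healing against loaded control 0.0763% (5.55%).

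By profile over the 8 arrays, the genes nearest to Cxcl13 were Mfsd12, Mmp13 and Arhgap10. Likeness was the root mean square difference of log2 signals, each centred on its own mean over the arrays. It was 0.41 for Mfsd12, a membrane transporter, 0.47 for the collagenase Mmp13 and 0.56 for Arhgap10. Mfsd12 read 103.6 and 113.1 in unloaded healing, 752.4 and 760.3 in loaded healing, 136.4 and 133.9 in unloaded controls and 74.7 and 141.4 in loaded controls. Mmp13 read 195.3 and 263.5 in unloaded healing, 1004.4 and 962.5 in loaded healing, 265.5 and 173.5 in unloaded controls and 16.0 and 156.5 in loaded controls.

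**Figure D3:**
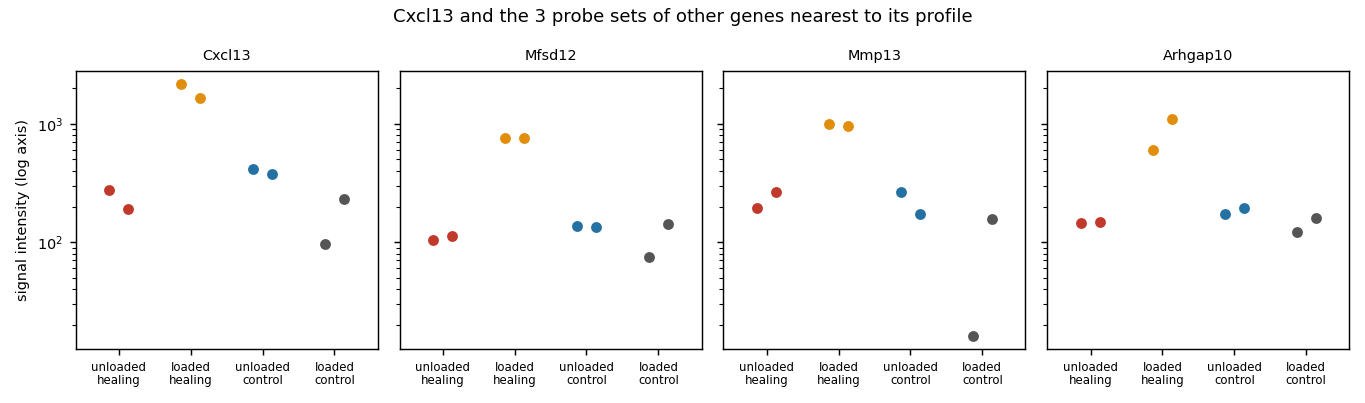
Signal intensity (log axis) of Cxcl13 and of Mfsd12, Mmp13 and Arhgap10 on the 8 arrays, array 1 of a group to the left of array 2. All 4 are highest on the 2 loaded healing arrays, the pattern by which the 3 were chosen.

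Of the chemokine receptors tested, 0 passed in any comparison. The receptors of Cxcl13, Ccl2 and Ccl20 (Cxcr5, Ccr2 and Ccr6) were not tested, and Ccr6 had no probe set. Of 22 receptor genes 10 had a probe set and 6 were tested, and limma called 0 of the 6 in each comparison, with 0 at an unadjusted p of 0.05 apart from 1 (Cxcr1) in unloaded control against loaded control. The median of the 6 was -0.15 in loaded healing against loaded control and 0.02 in unloaded against loaded healing. Cxcr5, the receptor of Cxcl13, was not tested because it was dim, at 106.8 and 206.5 in unloaded healing, 59.5 and 132.2 in loaded healing, 128.5 and 184.9 in unloaded controls and 83.0 and 126.8 in loaded controls. Cxcr4, which binds Cxcl12, has 3 probe sets. It was bright on U90610_g_at, at 1538.4 to 1930.2 on all 8 arrays, and differed there by 0.06 ± 0.23 in loaded healing against loaded control. Its probe set U90610_at read 1007.6 to 2081.9, while rc_AA945737_at was dim and not tested, at 22.1 to 116.3. Cx3cr1 read 119.2 and 657.2 in unloaded healing and 277.6 and 348.0 in loaded healing. Ccr2, too dim to be tested, read 216.7 and 83.1 in unloaded healing and 143.2 and 194.3 in loaded healing. The arrays of 1 group thus spanned as much as the groups did.

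Of 26 other chemokines 10 had a probe set and 6 were tested. Pf4, a platelet chemokine, was the 1 that rose in loaded healing, to 2660.8 and 2040.4 against 864.8 and 993.4 in loaded controls (log2 1.29 ± 0.28, adjusted p = 0.0492), and 0 fell. Its call ended in 14 of 18 other settings, among them leaving out any 1 array (adjusted p = 0.0565 to 0.317). Pf4 read 1151.9 and 1563.3 in unloaded healing (-0.78 ± 0.28 against loaded healing, adjusted p = 0.297). None of the 6 passed in unloaded against loaded healing with limma, and 2 had an unadjusted p under 0.05. Of all probe sets these were 1.62% and 10.9%. Cxcl10, induced by interferons, read 219.2 and 454.8 in unloaded healing, 157.7 and 78.7 in loaded healing, 533.4 and 714.0 in unloaded controls and 225.4 and 476.1 in loaded controls. It was lowest in loaded healing, by -1.24 ± 0.57 against loaded control (adjusted p = 0.456). Mif, a cytokine that also binds chemokine receptors, differed in its healing effect on S73424_s_at, which was 0.56 in unloaded rats (adjusted p = 0.186) and -0.69 in loaded rats (adjusted p = 0.193). The test of the difference of the effects called 4.84% of all probe sets. The difference was 1.25 ± 0.31 (limma adjusted p = 0.047), and on the second probe set rc_AI009801_at it was 1.72 ± 0.69 (adjusted p = 0.308). The first was a call that ended with quantile normalization (0.398), spike-in scaling (0.376), no filter (0.0936), no intensity trend (0.27) and without any 1 array other than unloaded control 1 (0.0766 to 0.166).

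**Figure D4:**
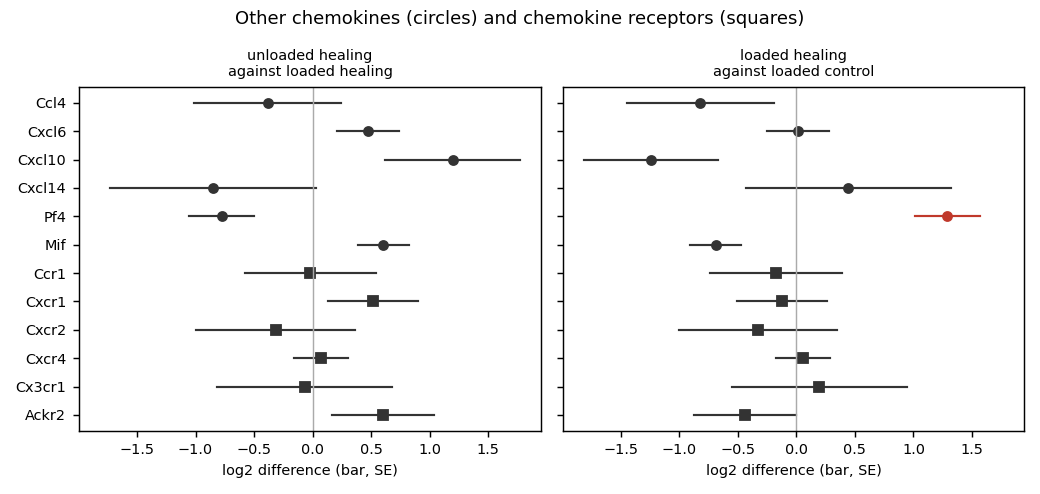
Log2 differences with SE bars for the 6 other chemokines and 6 chemokine receptors tested, in unloaded against loaded healing and in loaded healing against loaded control. Red marks adjusted p under 0.05, which Pf4 reached in loaded healing against loaded control at 1.29.

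Upstream cytokines and NF-kB genes, which switch on many chemokine genes, showed 0 of 9 called in each comparison with limma. At an unadjusted p of 0.05 there were 0 in loaded healing against loaded control and 0 in unloaded against loaded healing. There was 1, Il1b, in unloaded healing against unloaded control (-0.86, limma adjusted p = 0.18). Il1b was also the 1 in the healing effect in unloaded rats minus that in loaded rats (-1.24, limma adjusted p = 0.265). Of all probe sets these were 19.1% and 12.9%. Il1b, an inducer of Ccl2 and Cxcl2, read 564.7 and 485.4 in unloaded healing, 735.4 and 903.3 in loaded healing, 1071.1 and 916.5 in unloaded controls and 558.1 and 680.0 in loaded controls. Tnf was dim and not tested, at 56.4 to 121.7. As background for the adhesion molecules that follow, unloaded control against loaded control called 6.81% of all probe sets, and 0.591% as higher. Of 8 adhesion molecules of leukocyte traffic 1 was called in any comparison, the mucosal vessel molecule Madcam1, which rose in unloaded control against loaded control (0.98 ± 0.22, adjusted p = 0.0234), and that call ended in 7 other settings, among them leaving out any 1 control array (0.0783 to 0.148).

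Some macrophage and myeloid markers were high where Cxcl13 was, in loaded healing. Of 10 tested, 6 rose in loaded healing against loaded control and the same 6 fell in unloaded against loaded healing: Lyz2, Ctss, Lgals3, RT1-Da, Spp1 and Mmp12. Of all probe sets 2.02% and 1.62% were called in these comparisons. Lyz2 (3.09 and -2.60) and Spp1 (4.27 and -3.78) kept both calls under all 18 other settings, while in unloaded against loaded healing Lgals3 passed in 8 of the 18, Ctss in 11, Mmp12 in 13 and RT1-Da in 16 (adjusted p up to 0.226). In loaded healing against loaded control Lgals3 passed in 13, Ctss in 16, and Mmp12 and RT1-Da in 17 (up to 0.12). The median of the 10 was 1.91 in loaded healing against loaded control and -1.45 in unloaded against loaded healing. The 12 markers measured summed to 10814 and 10970 in unloaded healing, 50806 and 41007 in loaded healing, 6715 and 6756 in unloaded controls and 9462 and 9041 in loaded controls, and none was at 0. Lysozyme Lyz2 alone read 2422.4 and 2465.7 in unloaded healing, 16260.4 and 13978.0 in loaded healing, 578.1 and 516.9 in unloaded controls and 2144.3 and 1391.7 in loaded controls. The receptor Csf1r, which defines macrophages, was dim at 56.2 to 99.8, and Cd14 (-0.24 ± 0.30), Aif1 (-0.08 ± 0.39) and the leukocyte antigen Ptprc (0.08 ± 0.41) did not pass in loaded healing against loaded control. Spp1 and Mmp12 are also made by other cells. In unloaded healing or loaded control compared with unloaded control, the markers that passed had the opposite sign to Cxcl13. In unloaded healing against unloaded control 4 markers rose (Lyz2 2.07, Lgals3 2.35, RT1-Da 1.11 and Mmp12 1.95) and Cxcl13 was -0.68. In unloaded control against loaded control 3 fell (Lyz2 -1.58, Lgals3 -2.08 and RT1-Da -1.04) and Cxcl13 was 1.15, neither Cxcl13 value past the threshold. These comparisons called 7.46% and 6.81% of all probe sets. For the healing effect in unloaded rats minus that in loaded rats, the median over the 10 markers was -0.93, beside -3.97 for Cxcl13. Of the 10, 2 passed, Spp1 and Ctss, both with the sign of Cxcl13, while Lgals3 had the opposite sign (0.61). That test called 4.84% of all probe sets. The part of macrophages and myeloid cells in the Cxcl13 result was not tested.

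Markers of lymphocytes, neutrophils and mast cells, cells that these chemokines attract or that lie in connective tissue, did not pass in either of these comparisons. Of 8 lymphocyte genes tested 0 were called in loaded healing against loaded control or in unloaded against loaded healing with limma, and 0 had an unadjusted p under 0.05. The B cell gene Cd79b read 292.4 and 168.6 in unloaded healing, 76.0 and 354.1 in loaded healing, 171.3 and 349.6 in unloaded controls and 135.8 and 637.4 in loaded controls, and the summed lymphocyte signal was 4480 to 5877 on all arrays. In the lymphocyte list Cd74 passed where unloaded controls enter (3.56 ± 0.40 in unloaded healing against unloaded control, limma adjusted p = 0.000172). It was the 1 called of the 8 in that comparison, which called 7.46% of all probe sets, and the median of the 8 was -0.05. Of 3 neutrophil genes tested 0 were called in each comparison. At an unadjusted p of 0.05 there were 0 in loaded healing against loaded control and 1 (Lcn2) in unloaded against loaded healing. Of all probe sets these were 11.7% and 10.9%. In any other comparison there was at most 1. The mast cell list had 0 of 4 called in each comparison, with 0 at an unadjusted p of 0.05. In loaded healing against loaded control limma called 0 of 4 endothelial genes, 1 of 10 ligament fibroblast genes (Comp, lower), 1 of 6 skeletal muscle genes (Acta1, higher) and 0 of 2 nerve sheath genes. In unloaded against loaded healing it called Nos3, 3 fibroblast genes (Col1a2, Col3a1 and Thy1) and Myh4, all lower, and 0 nerve sheath genes. Of all probe sets 2.02% were called in loaded healing against loaded control and 1.62% in unloaded against loaded healing.

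**Figure D5:**
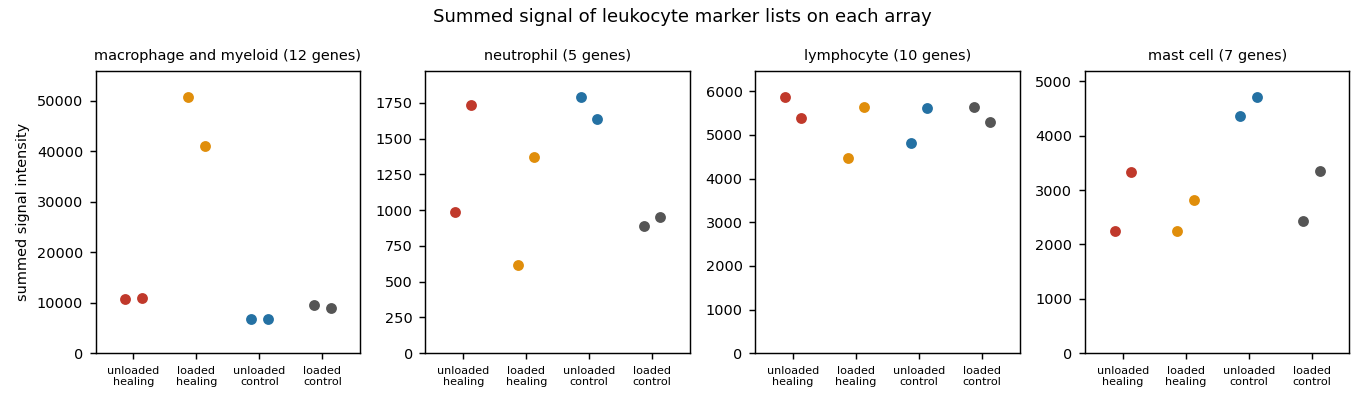
Summed signal intensity (linear axis from 0) of 4 leukocyte marker lists on each of the 8 arrays, with 1 probe set per gene and array 1 of a group to the left of array 2. The macrophage and myeloid sum is 50806 and 41007 on the loaded healing arrays and at most 10970 on the others.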

How the data were processed

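The authors deposited a linear intensity for each probe set, already scaled between arrays: the trimmed mean was 500.3 to 500.6 on every array. The sources used here name no summary software. The array's probe table gives 7018 probe sets 1 gene symbol, 308 several and 1473 none, and all 9 chemokine probe sets matched RefSeq by Entrez identifier. After 59 control probe sets were dropped, 8740 remained. Before log2, 45.8 (percentile 10 of the intensities) was added, and the dimmest 40% by mean log2 were removed, which left 5244. limma 3.58.1 (R 4.3.3) fitted 1 mean per group over all 8 arrays, with variances that follow intensity (4 residual and 5.81 prior degrees of freedom). Tests were two-sided and adjusted by Benjamini-Hochberg within a comparison, at a threshold of 0.05. The number of arrays limits the precision. The fit was tested on simulated data.

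The chemokines and the 12 gene lists were chosen with earlier results of these data known. Lists used the brightest probe set of a gene. Of each list, up to 4 genes past the threshold were to be named, or else the 2 brightest. Genes named beyond that were chosen after their values were seen. Alternatives were 3 scalings, other offsets and filters, no intensity trend, a replicate term and leaving out arrays. Replicate numbers were not taken as pairs, since not every pair of groups had same-numbered deviations from group means that correlated over 0.1: unloaded controls correlated with the other groups at 0.00 to 0.01, and those 3 groups among themselves at 0.16 to 0.20. In those 3 groups array medians were 238.7 to 250.8 for number 1 and 280.1 to 286.2 for number 2.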

Additional observations from a re-analysis of the deposited data

Results flagged for a closer look

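The healing effect on Cxcl13, healing against control ligaments, differed between unloaded and loaded rats, by a test of the difference itself. The log2 value was -3.97 ± 0.68 (limma adjusted p = 0.00461), from -0.68 in unloaded and 3.29 in loaded rats. Both unloaded healing arrays lay below both unloaded controls, as they did for 33.5% of all probe sets. Both loaded healing arrays lay above both loaded controls, as they did for 19.4%. On each unloaded array 2 to 7 of the 19 yeast and bacterial controls were at least as bright as Cxcl13. The value of -3.97 uses the unloaded control arrays, which stand apart. Their ligament fibroblast markers summed to 3841 and 3459, against 49292 to 126774 on the other arrays. Their actin 5′ to 3′ signal ratios were 0.964 and 0.634, against 0.237 to 0.529. The same ratio for GAPDH did not set them apart in 1 direction, at 0.953 and 0.712 against 0.729 to 0.896. Of 10 macrophage and myeloid markers 2 passed in the same direction, Spp1 (-3.21 ± 0.46, adjusted p = 0.00144) and Ctss (-1.58 ± 0.38, adjusted p = 0.0411), and Lgals3 was 0.61. The same test called 4.84% of all probe sets. Ctss passed in 6 of 17 other settings (adjusted p up to 0.162, without loaded healing 1). In unloaded rats the healing effect was 1.06 for Spp1 and 0.42 for Ctss, neither past the threshold. Unloaded controls had no sham operation and loaded controls had one, so the baselines of the 2 healing effects also differ in surgery. The part of sham surgery, the unloaded control arrays and the markers in the Cxcl13 value was not tested.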

How the results depend on the processing

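Each comparison was repeated under up to 18 other settings, and the Cxcl13 differences in both comparisons with loaded healing kept their sign in all of them (2.61 to 3.78 against loaded control, -3.28 to -2.33 in unloaded against loaded healing). The count of chemokine probe sets called was 0 to 1 without an array in loaded healing against loaded control, and in unloaded against loaded healing. There it was also 0 with no intensity trend, and 2 with spike-in scaling, an offset 4 times as large, the dimmest 60% removed, the replicate block and without the unloaded controls. The second call was Ccl2 X17053mRNA_s_at (adjusted p = 0.0136 to 0.0499). In the other 4 comparisons the count did not change, at 1 in the interaction and 0 elsewhere, and the replicate block changed no other chemokine call. Spike-in scaling moved the median of all probe sets to 0.34 in loaded healing against loaded control and to -0.40 in unloaded against loaded healing, where Cxcl13 was 3.67 and -3.28.

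Over all probe sets, loaded healing against loaded control called 106 (54 higher, 52 lower). It called 106 (84 and 22) with spike-in scaling, 64 with median centring, 70 with no filter, 29 with no trend and 27 to 94 without an array. Unloaded against loaded healing called 85 (40 and 45), with 137 (18 and 119) under spike-in scaling, 42 under median centring, 16 with no trend and 25 to 83 without an array. With quantile normalization, unloaded healing against unloaded control called 622 (388 and 234) in place of 391 (336 and 55), and unloaded against loaded control 590 (205 and 385) in place of 357 (31 and 326). Without an array these were 318 to 368 and 282 to 360. Unloaded healing against loaded control called 4, with 1 under median centring, spike-in scaling, no filter and without the unloaded controls, 0 with no trend, 7 with the replicate block and 0 to 6 without an array. The interaction called 254 (237 and 17), with 331 (251 and 80) under quantile normalization, 232 (184 and 48) under spike-in scaling and 215 to 245 without an array. A group left with 1 array took its spread from the other groups. The cause of these changes was not tested. Dim signal limits Ccl3, Cxcl2 and Ccl20.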
